A study of Mus musculus with 18 samples.

Results

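The nuclear-encoded respiratory chain subunit genes were followed through proteasome inhibition in NIH-3T3 cells, an established line of mouse embryonic fibroblasts. The members were chosen by gene symbol and summed count, as the subunit genes named Nduf, Sdha to Sdhd, Uqcr, Cox and Atp5 with a digit or letter, in the names in use when the table was made. The rule left out assembly factors and asked for at least 180 counts summed over all libraries, with no use of the differences between groups. It found 77 of the 23420 genes in the table, 35 of complex I, 4 of complex II, 8 of complex III, 13 of complex IV and 17 of complex V.

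The RNA came from wild-type (WT) cells and from an Nrf1 knockout (Nrf1-KO) line, which was made by CRISPR/Cas9, and each line was given DMSO or carfilzomib (CFZ) at 200 nM, which was left on for 6 or 24 h. CFZ is an irreversible inhibitor of the proteasome, the protease complex that degrades most short-lived proteins. There were 3 libraries in each of these 6 groups, 18 in all. The knockout was studied as a single cell line, so genotype cannot be told apart from other differences between these lines. No time was given for the DMSO cultures, and the same 3 DMSO libraries of a line are the control at both times. The replicates of a group are described as biological in the study, but neither its methods nor the labels say whether they were separate cultures, so p-values measure the spread between these libraries. The Nrf1 of the knockout is the transcription factor listed as Nfe2l1, which induces proteasome genes. The gene listed under the symbol Nrf1 is another one, nuclear respiratory factor 1.

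Complexes I to IV pass electrons from NADH and succinate to oxygen and, other than complex II, pump protons across the inner mitochondrial membrane. Complex V, the ATP synthase, uses the resulting gradient to make ATP. A small set of the subunits is encoded in mitochondrial DNA and the others in the nucleus, and the nuclear genes are classically regulated by nuclear respiratory factor 1, by the ETS factor GABP and by YY1. The mitochondrially encoded subunit genes were not analysed here.

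Counts per library ranged from 8333148 to 23917081. Levels are given as CPM, the usual scaling of counts to library size, after TMM scaling, and each library was closest to the other libraries of its own group in 18 of 18 cases. The Nfe2l1 gene had 457, 437 and 449 CPM in WT DMSO against 174, 185 and 181 in Nrf1-KO DMSO, so the libraries labelled Nrf1-KO held less of this RNA and were not without it. At 6 h of CFZ the Nrf1-KO libraries held 414, 416 and 427 CPM of Nfe2l1. Of 10 fibroblast markers, 9 passed the expression filter. Their summed level was 33020 to 35890 CPM in WT DMSO and 27610 to 33910 in Nrf1-KO DMSO, and at 24 h of CFZ it was 8224 to 8510 in WT and 11080 to 13150 in Nrf1-KO. The summed levels of the epithelial, endothelial, immune and skeletal muscle markers stayed at or under 13.03 CPM, and Epcam, Krt18, Cd3e and Myh4 were at 0 in all libraries. The fall of the fibroblast markers moved with CFZ in both lines, and its part in the results below was not tested.

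The promoters of 4 members are printed below and were searched for the motifs of these regulators and of Nfe2l1. Ndufa10, Cox6a1 and Atp5h were taken as examples from the 16 members that rose in WT and fell in Nrf1-KO cells at 24 h. Each of them held a motif match, which was not so for all of the 16. Sdha fell in both lines and had the most matches to the NRF1-type motif of the 4 printed, and Ndufb4, not printed, had as many. The sequences are those of RefSeq on GRCm38.p6, 250 bases before to 50 bases after the start, read along the strand of the gene. Capitals mark the motifs that were found in them. These are, on either strand, the NRF1-type motif of nuclear respiratory factor 1 (GCGCA, then any base, then GCGC), ETS/GABP-type CCGGAAG, YY1-type AANATGGCG and ARE/CNC-type TGACNNNGC, the last being the kind of site that Nfe2l1 binds.
Ndufa10 (chr1:92473709-92474008, minus strand, 1 ARE/CNC-type match): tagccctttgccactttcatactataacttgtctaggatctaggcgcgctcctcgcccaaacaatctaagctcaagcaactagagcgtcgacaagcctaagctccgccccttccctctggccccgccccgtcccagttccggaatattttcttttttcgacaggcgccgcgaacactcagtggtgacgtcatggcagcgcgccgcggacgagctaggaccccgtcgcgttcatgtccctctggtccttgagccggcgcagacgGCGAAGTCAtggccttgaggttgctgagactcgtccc
Cox6a1 (chr5:115348909-115349208, minus strand, 2 NRF1-type matches and 1 ETS/GABP-type match): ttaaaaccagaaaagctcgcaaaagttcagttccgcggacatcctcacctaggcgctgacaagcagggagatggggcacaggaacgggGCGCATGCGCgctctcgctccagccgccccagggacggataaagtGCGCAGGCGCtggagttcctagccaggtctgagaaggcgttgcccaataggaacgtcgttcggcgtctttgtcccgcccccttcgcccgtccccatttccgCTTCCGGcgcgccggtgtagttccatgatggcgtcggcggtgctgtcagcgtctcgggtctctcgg
Atp5h (chr11:115419870-115420169, minus strand, 1 NRF1-type and 1 ETS/GABP-type match): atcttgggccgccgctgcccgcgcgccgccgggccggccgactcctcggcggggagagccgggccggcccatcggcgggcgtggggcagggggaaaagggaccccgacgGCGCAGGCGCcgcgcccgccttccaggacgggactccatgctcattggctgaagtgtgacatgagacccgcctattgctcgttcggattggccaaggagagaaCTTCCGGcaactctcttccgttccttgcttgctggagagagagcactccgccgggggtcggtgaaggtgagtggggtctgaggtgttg
Sdha (chr13:74350191-74350490, minus strand, 3 NRF1-type matches): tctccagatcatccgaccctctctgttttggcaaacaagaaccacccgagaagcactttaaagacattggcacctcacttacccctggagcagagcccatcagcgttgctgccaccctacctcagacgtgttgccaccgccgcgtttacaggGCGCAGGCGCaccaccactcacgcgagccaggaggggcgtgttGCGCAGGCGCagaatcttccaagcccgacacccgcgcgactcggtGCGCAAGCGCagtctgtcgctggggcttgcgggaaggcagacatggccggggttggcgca

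A promoter was listed for 65 of the 77 members. The NRF1-type letters were in 15 of them (23.1%), as compared with 11.1% of the 8781 promoters of tested genes and 4.78% of all 27025. The ETS/GABP-type letters were in 23.1% of the members' promoters against 19% of those of tested genes, and the YY1-type letters in 13.8% against 5.8%. The ARE/CNC-type letters were in 8 of 65 (12.3%), against 15% of the promoters of tested genes. A match describes letters only and shows no binding.

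CFZ alone addressed how each line responded to proteasome inhibition. In WT cells at 6 h the subunit genes changed little. Of the 77 genes, 12 rose and 32 fell, where 35.6% of all 11762 genes tested rose and 36.2% fell, with a Benjamini-Hochberg adjusted p under 0.05. The median log2 fold change of the 77 was -0.07. This comparison depends on the scaling: with library size alone 3 genes were higher and 56 lower, and with upper-quartile scaling 4 and 56. In Nrf1-KO cells treated for 6 h, 65 of the 77 fell and 1, Cox7a2l, rose, where 34.5% of all genes rose and 35.0% fell. Their median log2 fold change was -0.31.

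At 24 h the lines were further apart. In WT cells 26 genes rose and 39 fell, where 43.2% of all genes rose and 40.5% fell, and the median log2 fold change was -0.12. The counts were 17 and 44 with upper-quartile scaling and 18 and 43 with library size alone. In Nrf1-KO cells 3 rose and 65 fell, where 44.4% of all genes rose and 41.1% fell, and the median was -0.55. A fall of at least 1.5-fold was seen for 7 genes in WT and for 34 in Nrf1-KO cells. Of all 11762 genes tested, 2897 fell by this much in WT and 2929 in Nrf1-KO cells. The all-gene medians under TMM lay at -0.02 and 0.02 in WT and at -0.01 and 0.03 in Nrf1-KO cells (6 and 24 h). Upper-quartile scaling and library size alone move the fold changes of all genes against DMSO by a median of -0.07 to -0.18, and the smallest rises in WT cells were lost under them.

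The fraction of all counts that fell on the 77 genes was 0.926% ± 0.014 (SD, n = 3) in WT DMSO, 0.831% ± 0.0025 at 6 h and 0.82% ± 0.011 at 24 h. In Nrf1-KO cells the fraction went from 0.947% ± 0.0093 in DMSO to 0.744% ± 0.012 at 6 h and 0.614% ± 0.034 at 24 h. Those treated for 24 h lay lowest, at 0.579, 0.618 and 0.646%, and did not overlap any other group. In such a fraction of bulk RNA, fewer transcripts per cell, fewer cells that hold them and a rise of other transcripts cannot be told apart.

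**Figure D1:**
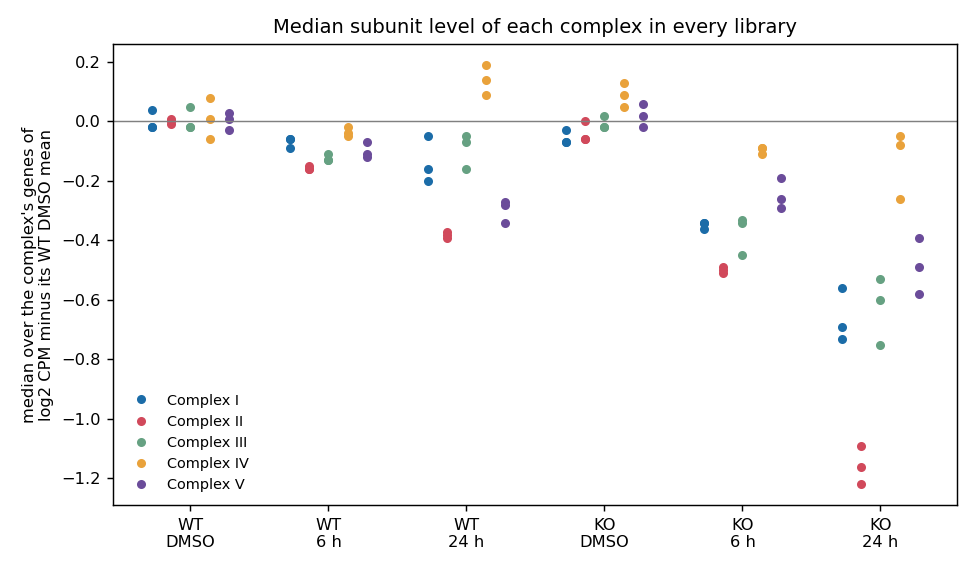
Each point is the median, over the genes of one complex, of log2 CPM minus the gene's mean in WT DMSO in one library, for the 6 groups on the horizontal axis (3 libraries each). Complex II reached -1.09 to -1.22 in the Nrf1-KO libraries at 24 h, while complex IV lay at 0.09 to 0.19 in the WT libraries at 24 h.

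The question of whether the lines responded differently was addressed by the interaction, which is the log2 fold change of CFZ against DMSO in Nrf1-KO cells minus that in WT cells. At 6 h the response was lower in Nrf1-KO cells for 45 of the 77 genes and higher for 0, where 18.4% of all genes tested were lower and 19.8% higher. With edgeR at an unadjusted p under 0.05 the counts at 6 h were 53 and 1, and DESeq2 also called 0 genes higher. The median difference was -0.20, and 75 of the 77 differences were below 0. At 24 h it was lower for 60 genes and higher for 2, where 30.0% of all genes were lower and 29.7% higher, with a median difference of -0.40. Under every scaling run at least 60 genes were lower at 24 h and at least 35 at 6 h. With a difference of at least 1.5-fold, 25 genes were lower at 24 h and 0 at 6 h. Of all 11762 genes tested, 1330 were lower by this much at 24 h and 511 at 6 h. The interactions at 6 and 24 h share their DMSO libraries.

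**Figure D2:**
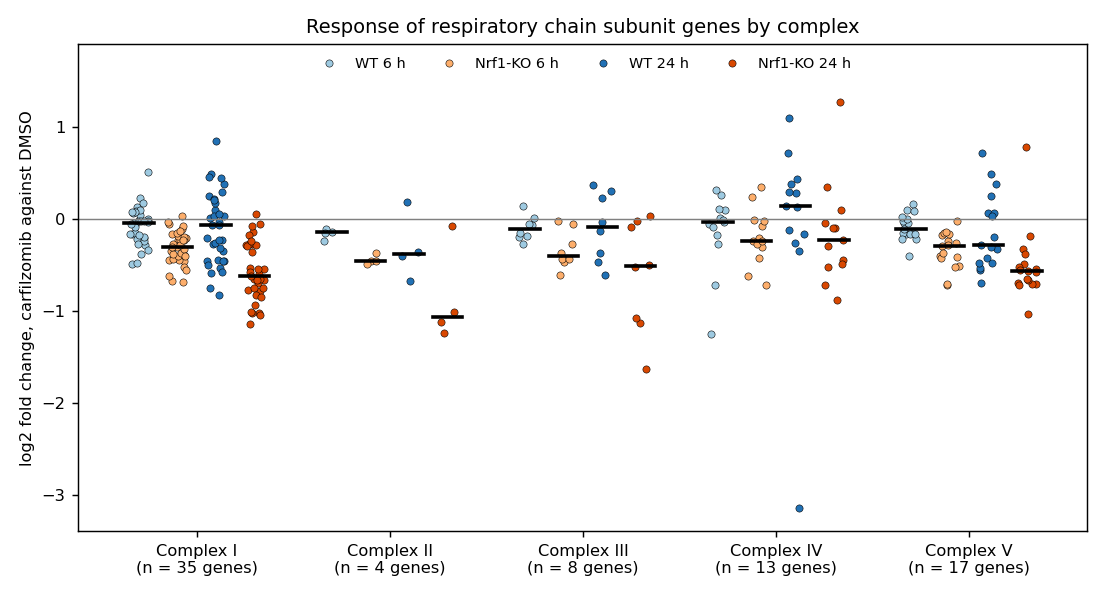
Each point is the log2 fold change of one gene against DMSO, by complex (n genes under the axis), line and time, and the black bars are medians. At 24 h the medians in Nrf1-KO cells were -0.62, -1.06, -0.51, -0.23 and -0.57 for complexes I to V, and in WT cells -0.07, -0.38, -0.09, 0.14 and -0.29, with Cox6a2 as the lone point at -3.15.

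At 24 h 16 genes rose in WT cells and fell in Nrf1-KO cells, a pattern seen in 3.21% of all genes tested. All 16 also passed the test of the difference, which is no separate support, since they were picked for opposite calls in the same libraries. They were Ndufa1, Ndufa4, Ndufa5, Ndufa8, Ndufa9, Ndufa10, Ndufa12 and Ndufs1 in the list of complex I, Uqcrc2 in complex III, Cox5b, Cox6a1, Cox6b1 and Cox8a in complex IV, and Atp5d, Atp5h and Atp5l in complex V. The opposite pattern, a fall in WT and a rise in Nrf1-KO cells, was seen in 0 of the 77 genes with edgeR, adjusted or not, and in 0 with DESeq2. With edgeR at an adjusted p under 0.05 only 3.23% of all genes tested had it, so 0 of 77 is near that share. Of these 16, the rise of Ndufa12 in WT cells (log2 0.10) was at -0.03 with upper-quartile scaling and at 0 with library size alone, and under both scalings Cox5b, Ndufa1 and Ndufs1 no longer passed the test in WT. The small falls of Uqcrc2 and Cox6b1 in Nrf1-KO cells did not pass the test without replicate 2 of Nrf1-KO DMSO or without replicate 1 of Nrf1-KO at 24 h, and each was lost without 1 further DMSO library. A further 38 genes fell in both lines, where 32.8% of all genes did, and 28 of the 38 fell further in Nrf1-KO cells. The matching share among all genes that fell in both lines was not computed, so the 28 cannot be called particular to the members. At 6 h 6 genes rose in WT and fell in Nrf1-KO cells, where 2.24% of all genes did. These were Atp5d, Atp5g1, Cox8a, Ndufa4, Ndufa8 and Ndufs1, of which Atp5g1 and Cox8a turned to a log2 fold change at or below 0 in WT with upper-quartile scaling and library size alone, and Ndufa4 came to 0 with library size alone. Under library size alone none of the 6 passed the test in WT at 6 h.

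Of the 16 genes with opposite directions at 24 h, 14 had a listed promoter, and 4 of these held ARE/CNC-type letters (28.6%), 4 NRF1-type letters (28.6%), 5 ETS/GABP-type letters (35.7%) and 1 YY1-type letters (7.14%). Of 32 listed promoters of genes that fell in both lines, 3 held ARE/CNC-type letters (9.38%), 7 NRF1-type letters (21.9%), 6 ETS/GABP-type letters (18.8%) and 5 YY1-type letters (15.6%). These groups were formed from the measured values, and no test was made of the letters.

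**Figure D3:**
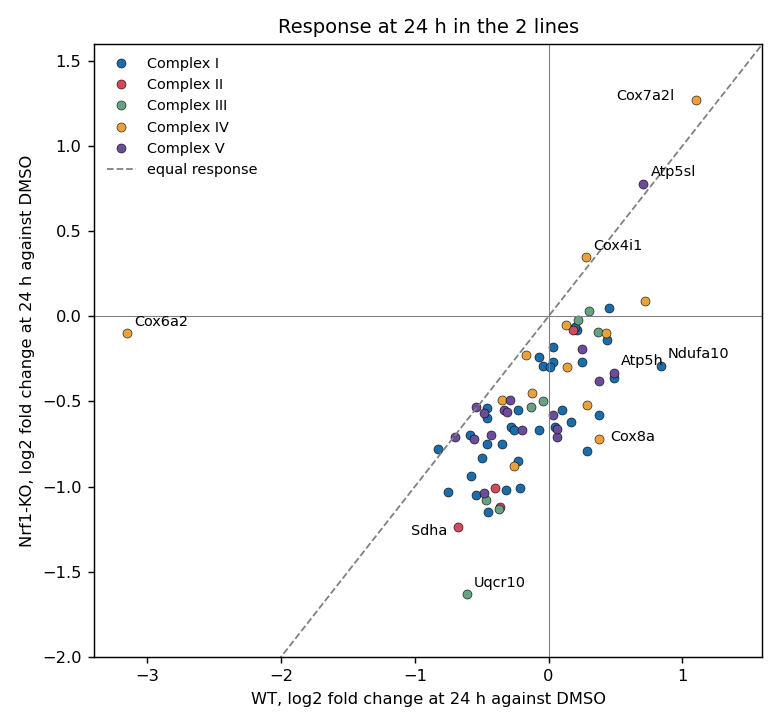
Each point is one of the 77 genes, with the log2 fold change of CFZ at 24 h against DMSO in WT cells on the horizontal axis and in Nrf1-KO cells on the vertical axis, and the dashed line marks an equal response. Most genes lie below the line, 16 of them in the lower right part with a call in each line, and Cox7a2l lies in the upper right. The position of Ndufa12 near the vertical axis turns with the scaling.

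Complex I, NADH dehydrogenase, takes electrons from NADH. Of its 35 listed genes, 28 (80%) had a lower response in Nrf1-KO cells at 24 h, against 30.0% of all genes tested. A higher response was seen for 0 of the 35, against 29.7% of all genes, and the median difference was -0.40. In Nrf1-KO cells 32 fell at 24 h (91.4%, against 41.1% of all genes tested). In WT cells 11 rose (31.4%, against 43.2% of all genes) and 17 fell (48.6%, against 40.5%), shares nearer to those of all genes. The largest difference was that of Ndufa10 (chromosome 1, 92439010 to 92473860, GRCm38), an accessory subunit. Ndufa10 had 120.5, 123 and 119 CPM in WT DMSO, 176.5, 171 and 168 at 6 h and 213, 218 and 221 at 24 h. In Nrf1-KO cells it had 103, 115 and 110.5 CPM in DMSO, 103, 109.9 and 102 at 6 h and 86.9, 91.2 and 89.9 at 24 h. Every WT library at 24 h was thus above every WT DMSO library, and every Nrf1-KO library at 24 h below every Nrf1-KO DMSO library. The log2 fold change of Ndufa10 at 24 h was 0.84 ± 0.037 (SE) in WT cells and -0.29 ± 0.04 in Nrf1-KO cells, a difference of -1.14 ± 0.055 (adjusted p = 1.3e-17).

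The 7 core subunits of complex I, which carry the flavin and the iron-sulfur clusters or lie next to the quinone site, all had a lower response in Nrf1-KO cells at 24 h. This held for 30.0% of all genes tested. The differences of the 7 ranged from -0.79 for Ndufs1 to -0.29 for Ndufv1, with -0.70 for Ndufs7 and -0.60 for Ndufs3. Ndufs1, which holds several of the iron-sulfur clusters, had 149, 156.5 and 154 CPM in WT DMSO and 167.5, 176 and 173 at 24 h. In Nrf1-KO cells Ndufs1 had 151, 151 and 158 CPM in DMSO and 96.9, 104 and 100.2 at 24 h. The groups at 24 h did not overlap those in DMSO, in either line. For Ndufs1, 6.16% of the exonic bases are shared with genes on the opposite strand, Eef1b2 and Ino80dos.

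The other 28 listed genes of complex I had differences from -1.14 to 0.06 at 24 h, and a range grows with the number of genes. Their median of -0.37 was near that of the core subunits, -0.41. Ndufa5 had a difference of -1.08 ± 0.076 at 24 h (adjusted p = 1.5e-13), with 37.1, 39.2 and 35.4 CPM in WT DMSO, 43.2, 46.0 and 46.7 in WT at 24 h, 38.4, 35.4 and 36.3 in Nrf1-KO DMSO and 20, 20.8 and 22.8 in Nrf1-KO at 24 h. Ndufa13 had the lowest log2 fold change of complex I in Nrf1-KO cells at 24 h, -1.15, although 30% of its exonic bases are shared with Tssk6 on the opposite strand. Ndufa7 fell in both lines, by 0.83 on the log2 scale in WT and by 0.78 in Nrf1-KO cells, and its difference of 0.06 ± 0.089 (adjusted p = 0.6) turned to -0.02 with library size alone. The gene Ndufa4 carries a complex I name but is known as a subunit of complex IV. It rose in WT cells at 24 h by 0.38 ± 0.042 and fell in Nrf1-KO cells by 0.58 ± 0.043, and its difference was -0.95 ± 0.06 (adjusted p = 1.1e-14). At 6 h Ndufa4 had the lowest difference of all 77 genes, -0.58 ± 0.062. Its paralogue Ndufa4l2 had 17 counts over all libraries and was not a member.

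Complex II, succinate dehydrogenase, is the complex whose subunits are all encoded in the nucleus and which also belongs to the TCA cycle. Its 4 genes all fell at 6 h in both lines, where 26.2% of all genes tested did. All 4 had a lower response in Nrf1-KO cells at both times, where 18.4% (6 h) and 30.0% (24 h) of all genes did. Sdha, the flavoprotein subunit that oxidises succinate, had 191, 191 and 187.5 CPM in WT DMSO, 162, 159 and 161 at 6 h, and 120.0, 117 and 119 at 24 h. In Nrf1-KO cells Sdha had 183, 192.5 and 183 CPM in DMSO, 136, 136 and 133 at 6 h, and 80.6, 78.8 and 76.5 at 24 h. The libraries of each time and line were separate from those of every other except in DMSO, where the lines overlapped. At 24 h Sdha fell by 0.68 ± 0.033 on the log2 scale in WT and by 1.24 ± 0.034 in Nrf1-KO cells, a difference of -0.56 ± 0.047 (adjusted p = 8.2e-12). The iron-sulfur subunit Sdhb had a difference of -0.61 ± 0.07 and the membrane anchor Sdhc one of -0.76 ± 0.06, the lowest of the complex. Sdhd, the other anchor, departed from these. In WT cells Sdhd rose at 24 h by 0.18 ± 0.047 (adjusted p = 0.00096) and in Nrf1-KO cells its log2 fold change was -0.08 ± 0.047 (adjusted p = 0.12), with a difference of -0.26 ± 0.067 (adjusted p = 0.0014).

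Complex III, the cytochrome bc1 complex, passes electrons from ubiquinol to cytochrome c. All 8 of its genes had a lower response in Nrf1-KO cells at 24 h, against 30.0% of all genes tested. The median difference of the 8 was -0.46. Uqcr10, a small subunit, had the lowest log2 fold change of all 77 genes in Nrf1-KO cells at 24 h. Uqcr10 had 46.3, 42.8 and 44.8 CPM in WT DMSO and 27.8, 30.5 and 28.8 at 24 h. In Nrf1-KO cells it had 50.4, 51.4 and 49.4 CPM in DMSO and 15.6, 15.6 and 17.6 at 24 h. Thus Uqcr10 fell in both lines, and the groups at 24 h overlapped neither each other nor DMSO. The fall was 0.61 ± 0.058 on the log2 scale in WT cells and 1.63 ± 0.062 in Nrf1-KO cells, with a difference of -1.02 ± 0.087 (adjusted p = 1.4e-11). The core protein genes Uqcrc1 and Uqcrc2 each had a difference of -0.46. In WT cells Uqcrc2 rose by 0.37, and 19.7% of its exonic bases are shared with Pdzd9 on the opposite strand. Uqcrfs1, the Rieske iron-sulfur protein, had the smallest difference, -0.24.

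Complex IV, cytochrome c oxidase, reduces oxygen to water. Its calls were the least uniform, with 7 of 13 genes lower, 2 higher and 4 not called in the interaction at 24 h. Of all genes tested, 30.0% were lower and 29.7% higher. The 2 higher genes were Cox6a2, on 1 to 3 counts per WT library at 24 h, and Cox7a2l, whose call was lost under some alternatives. Cox7b2, with 489 counts over all libraries, was among the 4 not called, and Ndufa4 is counted in complex I by its name. Cox8a had 173, 166 and 145.5 CPM in WT DMSO and 206, 205.5 and 218 at 24 h. In Nrf1-KO cells Cox8a had 157, 157 and 159.9 CPM in DMSO and 88.8, 98.5 and 100.5 at 24 h. Cox8a rose in WT by 0.38 ± 0.045 and fell in Nrf1-KO cells by 0.72 ± 0.048, and the difference of -1.09 ± 0.066 (adjusted p = 2.8e-15) was the lowest of complex IV. The other subunits of this pattern were Cox6a1 (difference -0.82 ± 0.052), Cox6b1 (-0.53) and Cox5b (-0.44). For the subunits Cox4i1 and Cox5a the values were 0.07 ± 0.06 (adjusted p = 0.33) and -0.18, of which the second passed the test.

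Cox7a2l, known as a factor of supercomplexes that join complexes III and IV, went the other way from most subunits. It had 175, 169 and 174 CPM in WT DMSO, 215, 216 and 212 at 6 h and 370.2, 372 and 366 at 24 h. In Nrf1-KO cells Cox7a2l had 147, 158 and 159.7 CPM in DMSO, 176, 178 and 199 at 6 h and 345, 378 and 399.6 at 24 h. Its level at 24 h was 2.14-fold that of DMSO in WT cells and 2.41-fold in Nrf1-KO cells. The difference of 0.17 ± 0.062 at 24 h (adjusted p = 0.017) was no longer called with library size alone (0.10), without replicate 1 of Nrf1-KO DMSO (0.14) or without replicate 3 of Nrf1-KO at 24 h (0.12). For Cox7a2l, 7.79% of the stretches of read length in its transcripts are also found in Gm6969. Cox4i1 and Atp5sl were the other genes that rose in both lines at 24 h, at 0.28 and 0.71 in WT and 0.35 and 0.78 in Nrf1-KO cells on the log2 scale. The pair Cox7a2 and Cox7a2l differed, since Cox7a2 fell by 0.17 in WT and by 0.23 in Nrf1-KO cells.

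The muscle isoform Cox6a2 and the testis isoform Cox7b2 were scarce in these fibroblasts. In counts, Cox6a2 had 26, 10 and 32 in WT DMSO and 1, 3 and 2 in WT at 24 h, against 14, 31 and 40 in Nrf1-KO DMSO and 18, 30 and 19 in Nrf1-KO at 24 h. The difference of 3.05 ± 0.67 (adjusted p = 0.00022) therefore rests on 1 to 3 counts in each WT library at 24 h, and 10.3% of the exonic bases of Cox6a2 are shared with Itgad on the opposite strand. Cox7b2 had 7, 7 and 5 counts in WT DMSO and 46, 60 and 87 in Nrf1-KO DMSO. Its log2 difference of 3.18 ± 0.26 between the lines in DMSO (adjusted p = 1e-11) was the largest among the 77 genes. Cox4i2, Cox6b2 and Cox7a1 had 10, 1 and 15 counts over all libraries, and Cox8b and Cox8c were at 0. The lowest summed counts within the rule were 324 for Cox6a2, 489 for Cox7b2 and 808 for Atp5s. Ndufs5, a subunit of complex I and not one of these isoforms, is listed at 0 in all libraries, while Ndufs4 and Ndufs6 had 11266 and 5781 counts. Whether this 0 comes from the counting or from absent RNA was not tested.

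**Figure D4:**
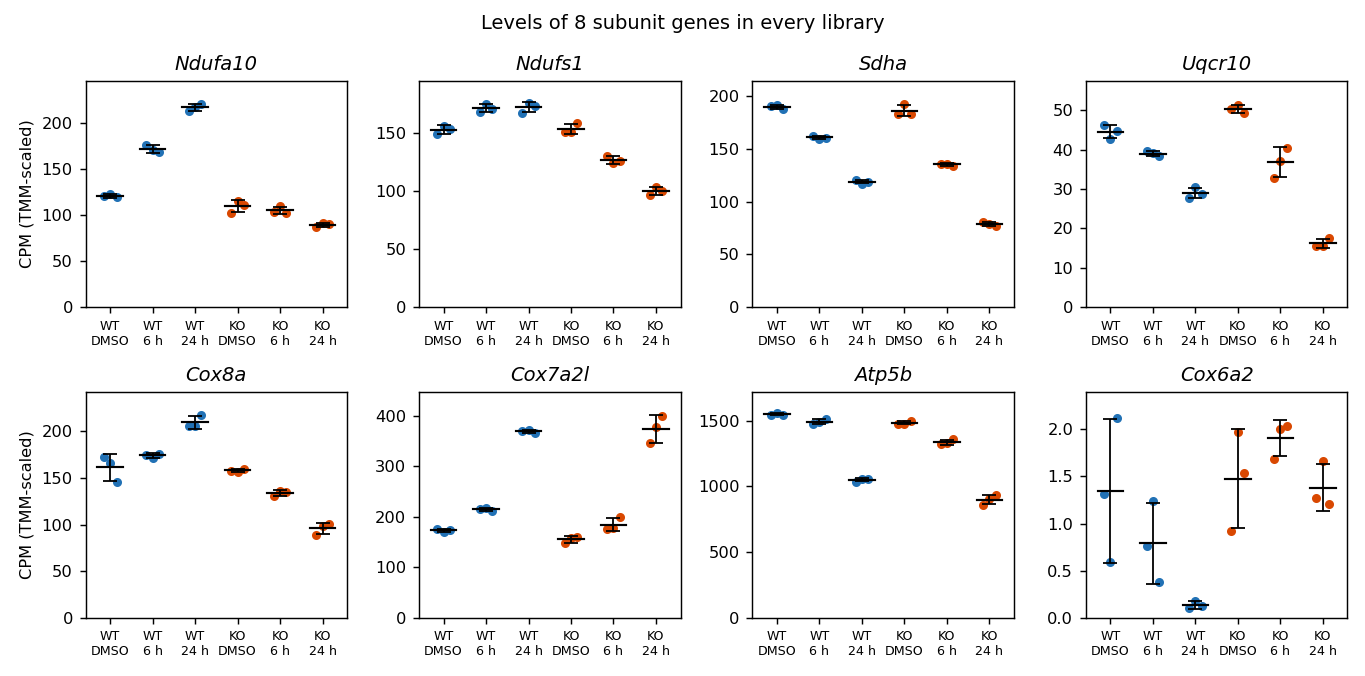
Levels of 8 subunit genes in TMM-scaled CPM on linear axes that start at 0, with each library as a point and the mean and SD (n = 3) of each group in black. Ndufa10, Ndufs1 and Cox8a rose in the WT libraries and fell in the Nrf1-KO libraries at 24 h, Sdha, Uqcr10 and Atp5b fell in both lines, Cox7a2l rose in both, and Cox6a2 was under 3 CPM throughout. The rise of Ndufs1 in WT was no longer called with upper-quartile scaling.

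Complex V is the ATP synthase, with the catalytic F1 part and the proton-conducting Fo part. Of its 17 genes, 13 had a lower response in Nrf1-KO cells at 24 h, against 30.0% of all genes tested. The other 4 were not called. The median difference of -0.27 was the smallest of the 5 complexes. The median was -0.22 over 5 F1 genes (range -0.45 to -0.01) and -0.52 over 10 other subunit genes (-0.82 to 0.01), Atp5s and Atp5sl left out. These ranges overlap, and a difference between the parts was not tested. Atp5b, the catalytic beta subunit, had 1545, 1559 and 1547 CPM in WT DMSO and 1036, 1057 and 1058 at 24 h. In Nrf1-KO cells Atp5b had 1479, 1476 and 1499 CPM in DMSO and 862, 903 and 936 at 24 h. It fell by 0.56 ± 0.032 in WT and by 0.72 ± 0.032 in Nrf1-KO cells, a difference of -0.16 ± 0.044 (adjusted p = 0.0025). Atp5a1, the alpha subunit, had a difference of -0.27. Atp5h, a subunit of the peripheral stalk, had the lowest difference of complex V, -0.82 ± 0.066 (adjusted p = 3.1e-12), with 236.6 ± 4.09 CPM at 24 h in WT cells and 124 ± 10.8 in Nrf1-KO cells (SD, n = 3). Of the stretches of read length in its transcripts, 15.9% are shared with Gm10250, and for Atp5l the share is 53.8% with 4 other genes.

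The c-ring, the rotating proton channel of Fo, is encoded by 3 genes for the same mature protein. Atp5g1 had a difference of -0.78 and Atp5g3 one of -0.25, both called. Atp5g2 had 0.01 and was not called, and 33.7% of its stretches are shared with Gm10175 and Gm10231. Atp5s and Atp5sl carry the name of the complex but are not structural subunits.

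Without CFZ the lines differed less. Of the 77 genes, 16 had more RNA in DMSO-treated Nrf1-KO cells than in such WT cells and 17 had less, where 25.7% of all genes were higher and 29.1% lower, and the median difference was -0.03. With library size alone these counts were 21 and 13. Atp5j, a subunit of the stalk, had 67.7, 66.02 and 67.2 CPM in WT DMSO and 96.7, 99.8 and 98.5 in Nrf1-KO DMSO, a log2 difference of 0.55 ± 0.041 (adjusted p = 5.2e-13). The gene Gabpa, which encodes the DNA-binding subunit of GABP, shares 12.7% of the exonic bases of Atp5j on the opposite strand, and it was 0.54 ± 0.034 higher. At 24 h of CFZ the mean of Gabpa was 108.9 CPM in Nrf1-KO and 62.2 in WT cells, and that of Atp5j 47.9 and 48.0. Whether the overlap has a part in the values of Atp5j was not tested. The lowest differences among the 77 were -0.32 for Ndufb8 and -0.27 for Ndufb2. After 6 h of CFZ, Nrf1-KO cells had 5 genes higher and 53 lower than WT cells, where 30.5% of all genes were higher and 30.8% lower. At 24 h 5 were higher and 61 lower, where 35.6% of all genes were higher and 36.4% lower, with a median of -0.48. Without replicate 1 of Nrf1-KO at 24 h, 9 were higher.

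From 6 to 24 h of CFZ, a comparison that does not use the DMSO libraries, 32 genes rose and 30 fell in WT cells, where 36.9% of all genes rose and 35.4% fell. In Nrf1-KO cells 7 rose and 48 fell, where 38.7% of all genes rose and 38.3% fell. The medians were 0.01 in WT and -0.24 in Nrf1-KO cells. Sdhd rose from 6 to 24 h in both lines, by 0.33 ± 0.049 in WT and by 0.38 ± 0.053 in Nrf1-KO cells.

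Other genes of the pathway were taken from lists, which were chosen with earlier results of these data known. Assembly factors, which build the complexes and do not stay in them, had a lower response in Nrf1-KO cells at 24 h for 26 of 42 tested genes and a higher one for 2, where 30.0% of all genes tested were lower and 29.7% higher, with a median difference of -0.30. Coa4, a factor for complex IV, had the lowest difference of -1.07 ± 0.24 (adjusted p = 0.00031), and Sco2, a copper chaperone of the same complex, the highest of 0.77 ± 0.22 (adjusted p = 0.0031). The gene Surf1, another factor for complex IV, rose in both lines at 24 h, by 1.12 in WT and by 0.37 in Nrf1-KO cells. A list of 10 further genes outside the name rule holds subunits and carriers such as Cyc1, Cycs and Ndufab1, and also Atpif1, an inhibitor of the ATP synthase, Coq10a and Coq10b, which bind coenzyme Q, and Dhodh, an enzyme of pyrimidine synthesis. Of these 10, 7 had a lower response in Nrf1-KO cells at 24 h and 1, Dhodh, a higher one, where 30.0% of all genes were lower and 29.7% higher. Etfdh, which passes electrons from fatty acid oxidation to ubiquinone, had the lowest difference, -1.01 ± 0.068 (adjusted p = 5e-14), and rose in WT by 0.69 while it fell in Nrf1-KO cells by 0.32.

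Of 17 tested regulators of respiratory genes, 6 had a higher response in Nrf1-KO cells at 24 h (35.3%) and 3 a lower one (17.6%), where 29.7% of all genes tested were higher and 30.0% lower, so that the higher share was near that of all genes. Esrra, the nuclear receptor ERR alpha, had a mean of 16.7 ± 2.09 CPM in Nrf1-KO DMSO and 44.4 ± 2.45 at 24 h, and of 17.6 ± 0.893 and 18.1 ± 0.804 in WT cells (SD, n = 3), with a difference of 1.39 ± 0.11 (adjusted p = 8.9e-13). Nuclear respiratory factor 1, listed as Nrf1, fell at 24 h by 1.10 ± 0.06 in WT and by 0.57 ± 0.052 in Nrf1-KO cells. Gabpb2, a partner of GABP, fell by 2.17 in WT and by 1.30 in Nrf1-KO cells. The differences of Gabpb1, Pprc1 and Gabpa were 0.57, 0.31 and 0.26. Tfb1m, a methyltransferase of the mitochondrial ribosomal RNA, fell by 1.91 ± 0.14 in WT and by 3.32 ± 0.17 in Nrf1-KO cells. Myc and Ppard also had a lower response, at -0.37 and -0.45. Tfam, which packages mitochondrial DNA, had a difference of 0.02 ± 0.08 (adjusted p = 0.82). Ppargc1a, which encodes the coactivator PGC-1 alpha, was at or under a mean of 2.66 CPM in every group.

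**Figure D5:**
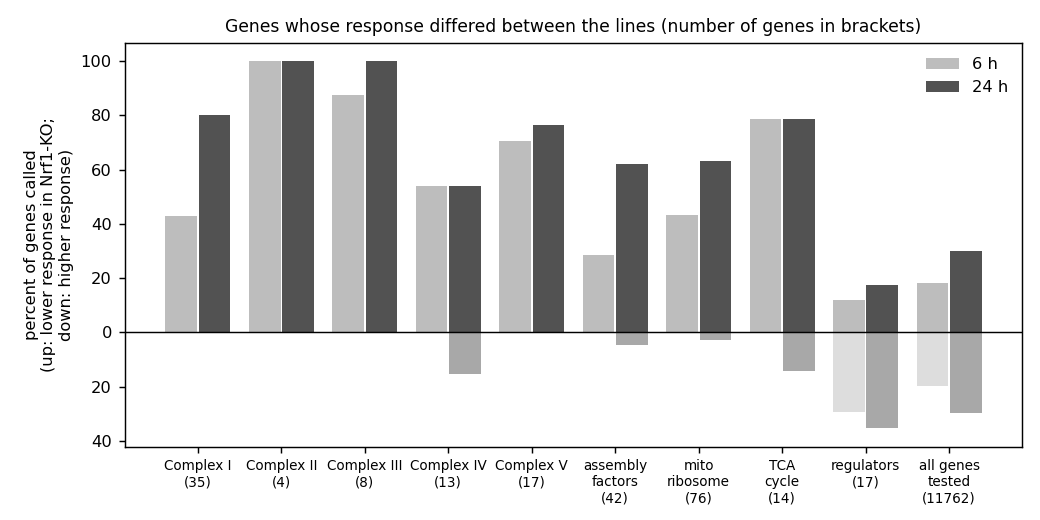
Bars upward give the percent of genes in each list whose response was lower in Nrf1-KO cells, and bars downward the percent with a higher response, at 6 h (light) and 24 h (dark), with the number of genes in brackets. At 24 h the lower share was 80, 100, 100, 53.8 and 76.5% for complexes I to V, 61.9% for assembly factors, 63.2% for mitochondrial ribosomal proteins, 78.6% for the TCA cycle and 30.0% for all genes tested.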

How the data were processed

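RNA was measured by RNA-sequencing in 18 libraries, which were grouped by the sample labels. Stranded mRNA libraries were aligned and counted by the authors through RNA Express (STAR and DESeq2, versions not given), and they deposited whole-number counts per gene symbol. The genome build, annotation and use of strand in counting are not given in the sources used here. All 18 count columns were matched by name.

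Counts were analysed with edgeR 4.0.16 in R 4.3.3 with TMM scaling, its expression filter (minimum count 10, minimum total 15), 1 quasi-likelihood fit of the 6 groups and Benjamini-Hochberg adjustment over 11762 genes, with a threshold of 0.05 and no minimum fold. All 77 members passed the filter. The standard error is the log2 fold change divided by the square root of F. Replicates varied little (common BCV 3.13%), and small differences reach the threshold. There were 11 comparisons. Chi-square per degree of freedom between replicates was 1.438 to 8.469, more than sampling noise alone gives.

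Members and lists were chosen with earlier results of these data known. Genes named were the extremes of each complex and comparison, core subunits, paired isoforms, regulators and genes called in opposite directions. Other genes were named after their values were seen. Some genes that the rule names are not reported here. Positions and shared stretches came from GENCODE M21 on GRCm38 by symbol (76 of 77 members matched), which need not be the annotation behind the counts. The alternatives were DESeq2 1.42.0, RLE, upper-quartile and library-size scaling, no filter, a mean count of at least 10, only the compared groups, a replicate block, at least 1.5-fold, leaving out each library, and 2 subsets of the members.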

Additional observations from a re-analysis of the deposited data

Results flagged for a closer look

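The results here are those in which WT and Nrf1-KO cells differed in their response by the test of the interaction (edgeR, adjusted p under 0.05). They are given as values, and no cause was tested.

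At 6 h, where 18.4% of all genes tested had a lower response in Nrf1-KO cells, it was lower for 45 members. Among them were Ndufa4 (-0.58), Ndufa10 (-0.56), Atp5g1 (-0.48), Ndufs1 (-0.45), Ndufa8 (-0.42), Cox8a (-0.35) and Atp5d (-0.33), as log2 differences. At 24 h it was lower for 60 members and higher for 2, where 30.0% of all genes were lower and 29.7% higher. In complexes I and II the log2 differences at 24 h were -1.14 for Ndufa10, -1.08 for Ndufa5, -0.95 for Ndufa4, -0.86 for Ndufa8, -0.79 for Ndufs1, -0.65 for Ndufa12, -0.58 for Ndufa9, -0.52 for Ndufa1, -0.76 for Sdhc and -0.26 for Sdhd. In complex III they were -1.02 for Uqcr10, -0.46 for Uqcrc2 and -0.24 for Uqcrfs1. In complex IV they were -1.09 for Cox8a, -0.82 for Cox6a1, -0.53 for Cox6b1, -0.44 for Cox5b, 0.17 for Cox7a2l and 3.05 for Cox6a2, the last on 1 to 3 counts per WT library at 24 h. In complex V they were -0.82 for Atp5h, -0.76 for Atp5l and -0.45 for Atp5d.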

How the results depend on the processing

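The calls are the counts of members called higher and lower, and medians are over the members' log2 fold changes. Against DMSO, upper-quartile scaling gave 4 higher and 56 lower (median -0.18) in WT at 6 h, 17 higher (median -0.26) in WT at 24 h, and medians of -0.38 and -0.66 in Nrf1-KO cells at 6 and 24 h. Library size alone gave 3 and 56 (median -0.20) in WT at 6 h, medians of -0.23 in WT at 24 h and of -0.42 and -0.73 in Nrf1-KO cells at 6 and 24 h, -0.31 for 24 against 6 h in Nrf1-KO cells, 1 higher with a median of -0.48 in the interaction at 24 h, and -0.18 between the lines at 6 h. Without a filter the medians were -0.18 in WT at 24 h and -0.36 and -0.60 in Nrf1-KO cells, and 1 gene was higher in the interaction at 6 h. The cause was not tested. The 42 members that share no exonic base or stretch of read length with another gene, a subset chosen after seeing the data, had medians of -0.13 and -0.21 in WT and -0.39 and -0.66 in Nrf1-KO cells at 6 and 24 h, and of -0.52 in the interaction at 24 h, where 34 of them were lower and 0 higher. In that interaction 30.0% of all genes tested were lower and 29.7% higher.

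A minimum of 1.5-fold, which only removes calls, left 0 and 0 in WT at 6 h, 3 and 7 in WT at 24 h, 0 and 8 in Nrf1-KO cells at 6 h, and 34 lower in Nrf1-KO cells at 24 h. It left 3 and 2 for 24 against 6 h in WT and 3 and 8 in Nrf1-KO cells. In the interaction it left 0 lower at 6 h, and 1 and 25 at 24 h. Between the lines it left 1 and 0 in DMSO, 2 and 2 at 6 h, and 2 and 27 at 24 h. Of the 11762 genes tested it left 1282 and 1648 in WT and 1157 and 1373 in Nrf1-KO cells at 6 h. At 24 h it left 2666 and 2897 in WT, and 2929 lower in Nrf1-KO cells. For 24 against 6 h it left 1492 and 1781 in WT and 1887 and 2126 in Nrf1-KO cells. In the interaction 511 were lower at 6 h, and 1262 and 1330 were left at 24 h. Between the lines 708 and 472 were left in DMSO, 1080 and 809 at 6 h, and 1659 and 1514 at 24 h.

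Leaving out each library moved the median from -0.62 to -0.54 in Nrf1-KO cells at 24 h, from -0.04 to 0.01 for 24 against 6 h in WT, from -0.29 to -0.23 in Nrf1-KO cells, from -0.26 to -0.19 (0 to 1 higher) in the interaction at 6 h, with 1 higher without replicate 2 of WT DMSO or of WT at 6 h, from -0.46 to -0.38 (1 to 3 higher) at 24 h, and from -0.49 to -0.40 (5 to 9 higher) between the lines at 24 h. Counts lower in the interaction were 35 to 54 at 6 h and 58 to 64 at 24 h.

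Directions turned for the following genes. In WT at 6 h Atp5g1 went to -0.02 (upper-quartile) and -0.05 (library size), Cox8a to 0 and -0.03, and Ndufa4 to 0 (library size). In WT at 24 h Ndufa12 went to -0.03 (upper-quartile) and 0 (library size). In the interaction at 24 h, none of them called, library size alone turned Ndufa7 to -0.02, Atp5sl to -0.01, Cox4i1 to -0.01 and Atp5g2 to -0.07. With each library left out in turn Ndufa7 ranged from -0.06 to 0.12 and Atp5g2 from -0.03 to 0.05. Of 2161 alternatives for named genes, 2056 kept direction and call, 64 lost and 24 gained the call, and 17 turned.

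The replicate numbers gave little sign of a pairing of the libraries. The labels do not say whether same-numbered libraries shared a culture or batch, and low correlations cannot exclude it. Same-numbered libraries had a mean correlation of 0.0252 (-0.066 to 0.171, 7 of 45 pairs over 0.1), and 8 of 18 libraries correlated best with their own number. With the replicate block, 61 genes were lower and 2 higher in the interaction at 24 h and 46 and 0 at 6 h, and the call of Atp5g1 in WT at 6 h was lost.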

Other observations

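Beyond the respiratory chain, 2 other mitochondrial lists were measured. Of 76 mitochondrial ribosomal protein genes, whose products translate the mitochondrially encoded subunits, 42 rose and 21 fell in WT cells at 24 h (median log2 fold change 0.21), where 43.2% of all genes tested rose and 40.5% fell. In Nrf1-KO cells 27 rose (35.5%) and 38 fell (50%), with a median of -0.13, where 44.4% of all genes rose and 41.1% fell. Their response was lower in Nrf1-KO cells for 48 genes and higher for 2, where 30.0% of all genes were lower and 29.7% higher, with a median difference of -0.28, the lowest being Mrpl51 at -1.43. Of 14 TCA cycle genes, 11 had a lower response in Nrf1-KO cells at 24 h and 2 a higher one (median -0.26). The highest was Idh2, the mitochondrial NADP-dependent isocitrate dehydrogenase, at 0.19.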
